A study of Mus musculus with 12 samples.

Results

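The effects of 2 gene knockouts on sorted mouse medullary thymic epithelial cells (mTECs) were compared gene by gene on 8 of the 12 arrays of the series. For every gene the loss of Brg1 was expressed as Brg1-/- minus Brg1+/+, the loss of Aire as Aire-/- minus Aire+/+, and the second value was subtracted from the first. The 8 arrays are those of mTEChi, the mTECs with high MHC class II, with 2 arrays in each of 4 groups. The groups were Aire+/+, Aire-/-, Brg1+/+ and Brg1-/- mTEChi, all from C57BL/6 thymus at 4 weeks of age. Cells had been gated as DAPI-negative, CD45-negative, Epcam-positive, UEA-positive and low for Ly51. The other 4 arrays are mTEClo, with low MHC class II, 1 array for each genotype, and were used here only to look at the same difference in other cells. The alleles, the driver of either deletion and any pooling of animals are not given in the sources used here. The titles number the arrays 1 and 2 in every mTEChi group without saying whether these stand for different animals. The p-values therefore describe the spread between arrays only, which may be technical.

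Medullary thymic epithelial cells display proteins of many peripheral organs to developing T cells, so that T cells reactive to them can be removed or diverted. Aire is the nuclear protein on which much of this promiscuous transcription depends in mature, MHC class II high cells. Brg1, encoded by Smarca4, is an ATPase of the SWI/SNF complexes, which move and evict nucleosomes and so change how accessible DNA is. The comparison asks on which genes the losses of these proteins have like or unlike effects.

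Genes picked from the different sides of the comparison are introduced by the DNA just before their starts. They are not the top of a ranking. The Paneth cell defensins Defa21 and Defa22 and the salivary demilune genes Dcpp1, Dcpp2 and Dcpp3 had much lower levels without Aire and levels without Brg1 that were far nearer to wild type. Pitpnc1 and Fbxo2 stood on the other side of the comparison, and Fgb was lower in both knockouts. The lines give the 100 bases before the first listed start, 5′ to 3′ on the gene's own strand, from RefSeq on GRCm38.p6. Capitals mark TATAA in the windows of the Defa and Dcpp genes and each CG in those of Pitpnc1 and Fbxo2, and the Fgb window holds neither.
Defa21: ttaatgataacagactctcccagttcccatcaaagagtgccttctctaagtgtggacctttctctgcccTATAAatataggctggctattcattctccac
Defa22: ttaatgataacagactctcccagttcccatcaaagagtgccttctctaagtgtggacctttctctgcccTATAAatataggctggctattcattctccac
Dcpp1: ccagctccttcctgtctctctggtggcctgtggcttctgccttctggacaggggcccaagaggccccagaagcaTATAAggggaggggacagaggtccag
Dcpp2: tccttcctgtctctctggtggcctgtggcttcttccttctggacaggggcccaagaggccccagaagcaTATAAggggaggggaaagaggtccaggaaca
Dcpp3: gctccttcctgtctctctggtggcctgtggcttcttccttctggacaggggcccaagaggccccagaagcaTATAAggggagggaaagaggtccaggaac
Pitpnc1: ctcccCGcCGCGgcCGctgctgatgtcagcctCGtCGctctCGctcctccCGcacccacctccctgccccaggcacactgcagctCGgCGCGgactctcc
Fbxo2: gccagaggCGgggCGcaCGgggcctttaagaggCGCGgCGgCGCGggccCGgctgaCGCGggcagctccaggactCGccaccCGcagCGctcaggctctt
Fgb: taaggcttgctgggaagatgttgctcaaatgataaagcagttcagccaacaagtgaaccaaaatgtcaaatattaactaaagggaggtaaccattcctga
The windows lie at chr8:21025445-21025544 (plus strand) for Defa21, chr8:21162177-21162276 (plus) for Defa22, chr17:23880776-23880875 (plus) for Dcpp1, chr17:23898622-23898721 (plus) for Dcpp2 and chr17:23917358-23917457 (plus) for Dcpp3. That of Pitpnc1 lies at chr11:107470721-107470820 (minus), that of Fbxo2 at chr4:148160568-148160667 (plus) and that of Fgb at chr3:83049864-83049963 (minus). The Defa21 and Defa22 windows were identical at 100 of 100 bases. Those of Dcpp1, Dcpp2 and Dcpp3 matched each other at 93 to 98 of 100 bases once aligned with gaps (4 to 10 gap positions). Members of such families can also be alike in their transcripts, so a probe set may read several of them, and probe sequences were not used here.

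Some arrays stood apart or bear on the labels, and these facts hold for everything that follows. The Aire probe set was not lower in the arrays labelled Aire-/- (9.01 and 9.73 on the log2 intensity scale, against 8.04 and 8.80), and Smarca4 read 5.88 and 5.44 in Brg1-/- against 6.13 and 6.89 in Brg1+/+. How these probes lie relative to the deletions is unknown, and neither level can check a genotype. H2-Ea, an MHC class II gene that C57BL/6 mice do not transcribe, read between 11.32 and 11.60 on Brg1+/+ array 2 and both Brg1-/- arrays and 10.11 in Brg1-/- mTEClo, against 3.98 to 5.89 on the other 8 arrays. Arrays numbered 1 and 2 differed in all 4 groups: Tcea1, an elongation factor gene, read 9.44 to 9.90 on the arrays numbered 1 and 6.43 to 6.69 on those numbered 2. Levels of 12 thymocyte genes summed on the linear scale came to 2495 on Brg1-/- array 2 and 588 to 1380 on the other 7 mTEChi arrays, and none of the 12 passed the test of the difference below. Epithelial genes were present on all 8 arrays (Epcam 8.41 to 9.23, Krt14 10.57 to 11.68). The part of these features in the results was not tested.

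The loss of Aire lowered a set of tissue-restricted genes far more than the loss of Brg1 did. In the test of the difference itself (limma, all 22154 genes, adjusted p under 0.05), 30 genes passed with the higher value for Brg1, 0.135% of the genes tested, and 0 with the lower. At an unadjusted p under 0.05 there were 815 genes (3.68%). A fit that takes the array number within each line as a block, and so compares arrays of like number, is meant below wherever a block is named without its kind. It called 187 genes higher (0.844%) and 14 lower (0.0632%), 201 in all (0.907%) and among them all 30. A block common to both lines called 228 (1.03%), again with all 30 among them. Taken alone, the Aire effect passed in 176 genes (0.794%), 531 with the block within each line (2.4%), and the Brg1 effect in 0 in any of the 3 fits, with 301 genes (1.36%) at an unadjusted p under 0.05 and 1289 (5.82%) with the block. In the 30 genes the Aire effect ran from -7.92 to -2.62 (median -5.24, log2) and the Brg1 effect from -1.12 to 0.94 (median -0.14). The difference chose these genes and contains both effects, so these ranges are a description. Leaving out an array leaves 1 in its group and fewer residual degrees of freedom. The count without the block fell each time, least without Aire-/- array 2 or Brg1+/+ array 1. It was 5 without Aire+/+ array 1, 4 without Aire+/+ array 2, 15 without Aire-/- array 1, 13 without Brg1+/+ array 2 and 4 without either Brg1-/- array. With a block common to both lines, all 30 were called in each of these fits.

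**Figure D1:**
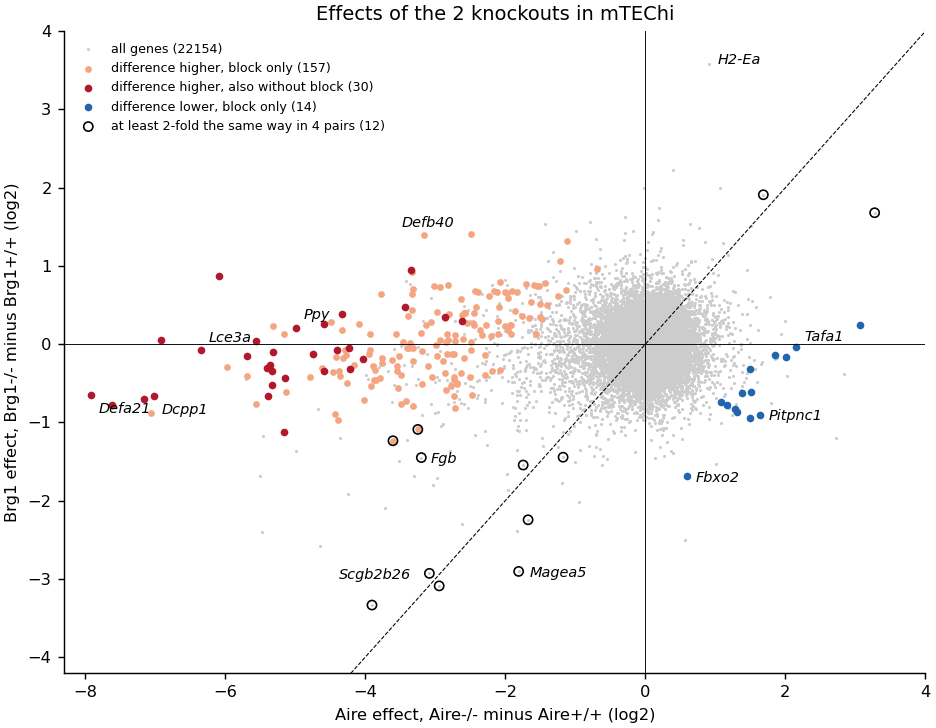
Aire effect (x axis) against Brg1 effect (y axis) in mTEChi for 22154 genes, each a difference of means of 2 arrays on the log2 scale; the dashed line marks equal effects. The 30 genes called in the difference without a block lie at the left between -7.92 and -2.62 on the x axis and within -1.12 and 0.94 on the y axis, and the 14 called lower with the block lie at the right, 13 of them below 0 on the y axis.

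Among antimicrobial peptides, the Paneth cell alpha-defensin Defa21 read 11.69 and 12.13 in Aire+/+, 4.21 and 3.78 in Aire-/-, 11.80 and 12.04 in Brg1+/+ and 11.42 and 11.13 in Brg1-/-. The Aire-/- arrays lay far below all 6 others, which spanned 1 log2 unit. The difference was 7.27 (SE 0.405, n = 2 per group, limma adjusted p = 0.00229), the largest of all genes called. For Defa21 the Brg1 effect was -0.65, with a 95% interval of -1.31 to 0.02. Both Brg1-/- arrays lay below both Brg1+/+ arrays, as in 9.62% of all genes. Defa22 read 11.40 and 11.81, 4.19 and 3.79, 11.71 and 11.58, and 10.81 and 10.93 in the same order of groups, a difference of 6.84 (SE 0.377, adjusted p = 0.00229). Its Brg1 effect of -0.78 had an interval of -1.40 to -0.15 before adjustment over all genes and an adjusted p of 1. Defa24 differed by 5.0 (SE 0.626, limma adjusted p = 0.0482), with a Brg1 effect of -0.34.

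The beta-defensins Defb50 and Defb19, epithelial antimicrobial peptides best known from the male reproductive tract, behaved alike. Defb19 read 10.97 and 11.01 in Aire+/+, 5.37 and 5.81 in Aire-/-, 11.12 and 10.33 in Brg1+/+ and 10.41 and 10.42 in Brg1-/-. The Aire-/- arrays were again the only low ones, and the Brg1-/- arrays lay within the range of Brg1+/+. The differences were 5.09 (SE 0.452, limma adjusted p = 0.0135) for Defb19 and 5.10 (SE 0.499, adjusted p = 0.02) for Defb50. Of the 13 alpha-defensin genes measured, 3 were called higher in the difference and 5 with the block, with a median difference of 2.79 against -0.05 over all genes. Of the 42 beta-defensin genes 2 were called, and 8 with the block, with a median of 0.76.

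The demilune genes encode secreted proteins of the sublingual gland. Dcpp1 read 12.37 and 12.38 in Aire+/+, 6.13 and 4.58 in Aire-/-, 12.38 and 12.19 in Brg1+/+ and 11.77 and 11.47 in Brg1-/-. Both Brg1-/- arrays were below both Brg1+/+ arrays, as in 9.62% of all genes, and by far less than the Aire-/- arrays. The difference was 6.36 (SE 0.658, limma adjusted p = 0.023) for Dcpp1 and 6.46 (SE 0.578, adjusted p = 0.0135) for Dcpp2, and all 3 measured Dcpp genes passed. All 3 were below their wild types in both Brg1 pairs of like number, as were 23.5% of all genes, with a median Brg1 effect of -0.67. Summed on the linear scale, the 3 genes came to 12944 and 13935 in Aire+/+, 182 and 176 in Aire-/-, 12796 and 11196 in Brg1+/+ and 8364 and 7092 in Brg1-/-. The Aire-/- sums were the lowest, and the Brg1-/- sums lay below those of Brg1+/+ without overlap.

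Lce3a, a late cornified envelope gene of skin, read 10.69 and 10.50 in Aire+/+, 4.51 and 4.00 in Aire-/-, 10.90 and 9.77 in Brg1+/+ and 10.43 and 10.10 in Brg1-/-. The Brg1-/- arrays lay inside the range of Brg1+/+. The difference was 6.27 (SE 0.565, limma adjusted p = 0.0135), and the 95% interval of the Brg1 effect in Lce3a was -1.0 to 0.86. Of 30 Lce and Sprr genes measured, 1 was called and 5 with the block, and 28 had a difference above 0, as did 44.4% of all genes.

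Among hormones and neuropeptides, the islet hormone gene Ppy read 11.70 and 11.17 in Aire+/+, 6.69 and 6.20 in Aire-/-, 11.60 and 10.42 in Brg1+/+ and 11.49 and 10.94 in Brg1-/-. Only the Aire-/- arrays were low, and the Brg1 groups overlapped. Ppy differed by 5.20 (SE 0.626, limma adjusted p = 0.0409) and Nts, which encodes neurotensin, by 4.84 (SE 0.532, adjusted p = 0.0309). The Brg1 effect was 0.20 in Ppy (95% interval -0.83 to 1.24) and 0.26 in Nts (-0.62 to 1.13). Of 17 neuropeptide genes, 3 were called (Nts, the galanin gene Gal and Pmch, the melanin-concentrating hormone precursor) and 9 with the block. All 17 had a difference above 0 (44.4% of all genes did), with a list median of 2.19, an Aire median of -2.69 and a Brg1 median of 0.05. Of 9 islet genes 1 was called and 4 with the block, and Ins2, the insulin gene that mTECs express, differed by 0.32 (SE 0.513, limma adjusted p = 1).

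The cystatin Cst9, a protease inhibitor gene known from testis, read 10.53 and 9.78 in Aire+/+, 4.91 and 4.02 in Aire-/-, 10.36 and 9.34 in Brg1+/+ and 10.02 and 9.39 in Brg1-/-. Within each group the array numbered 1 was the higher by 0.63 to 1.02. Its difference of 5.54 had an SE of 0.684 without and 0.29 with the block (limma adjusted p = 0.0467 and 0.0012). Ly6g, a surface antigen best known from granulocytes, differed by 5.23 (SE 0.651, limma adjusted p = 0.0478), from 9.03 and 9.59 in Aire+/+ to 4.66 and 3.31 in Aire-/-, and from 9.09 and 9.56 in Brg1+/+ to 9.39 and 9.07 in Brg1-/-.

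**Figure D2:**
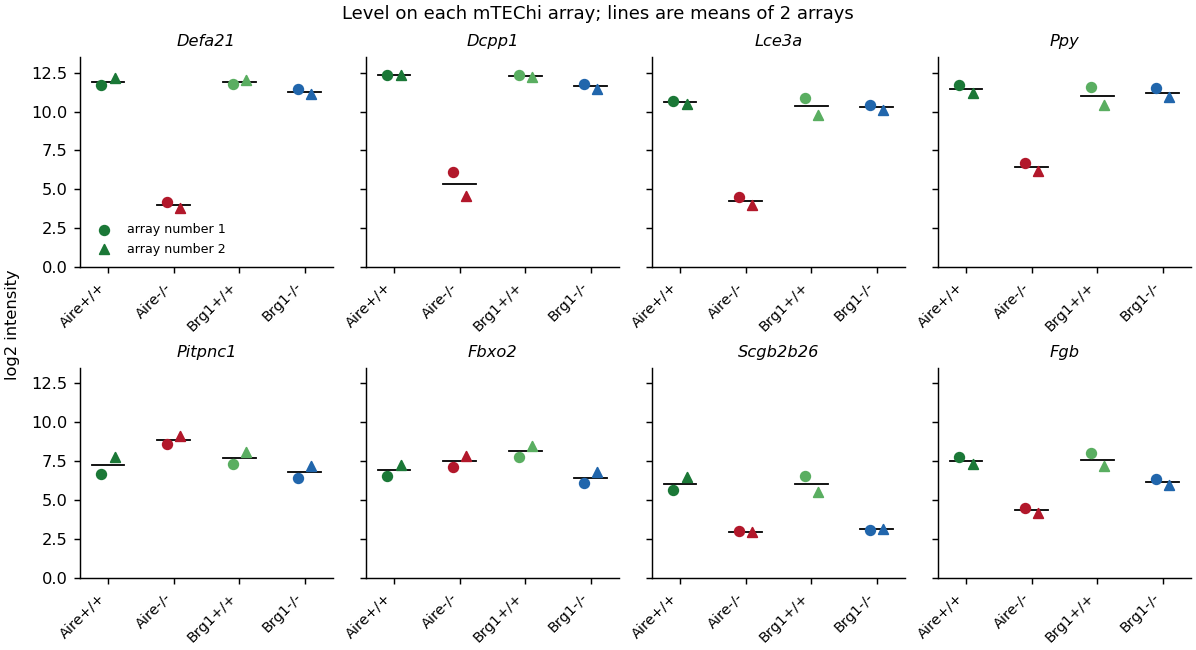
Log2 intensity of 8 genes on each mTEChi array (circles are arrays numbered 1, triangles arrays numbered 2, lines the mean of 2 arrays). In the upper row only the Aire-/- arrays are low (Defa21 4.21 and 3.78). In the lower row Pitpnc1 is high in Aire-/-, and Fbxo2 is lower in Brg1-/- than in Brg1+/+ but overlaps Aire+/+. Scgb2b26 and Fgb are low in both knockouts.

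Read together, the lists of tissue genes held 409 measured genes. Of these 20 were called higher in the difference and 0 lower, and 71 and 0 with the block, against 0.135% and 0.844% called higher over all genes. Their median difference was 0.70, that of the Aire effect -0.74 (0.06 over all genes) and that of the Brg1 effect -0.11 (near 0 over all genes). The Brg1 effect was below 0 in 243 of the 409, against 49.7% of all genes. In both Brg1 pairs 138 of the 409 lay below the wild type, against 23.5% of all genes. The lists were chosen with earlier results of these data known, so these counts describe and do not test them. The largest list medians after those of the Dcpp and alpha-defensin genes were in the Reg lectins of pancreas and gut (2.52, 1 of 7 called and 4 with the block), the neuropeptides, the major urinary and odorant-binding proteins (1.74, 0 of 9 and 3) and the cystatins (1.41, 2 of 15 and 4). Mup6 of the urinary proteins differed by 6.19 (SE 0.88) and passed only with the block (limma adjusted p = 0.0717 without it and 0.00844 with it).

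Lists of other organs had smaller medians. Stomach genes had a median difference of 0.69 (1 of 13 called, the gastrokine Gkn2, and 4 with the block), intestine genes 0.44 (1 of 20, the trefoil factor Tff3, and 2), acinar enzymes 1.18 (0 of 13, and 3), milk proteins 1.32 (0 of 8, and 1), lens and retina genes 1.12 (0 of 13, and 3) and liver plasma proteins 0.75 (0 of 18, and 2). Striated muscle genes (0.17, 16 genes) and cytochrome P450 genes (0.13, 79 genes) had 0 called in any of the 3 fits. Fezf2, another nuclear factor of mTECs, controls antigens largely apart from Aire, and of 12 genes listed for it 1 was called, Tff3, with a list median of 0.22. The 11 Klk1b kallikreins, salivary proteases, had 0 called genes and a median difference of 0.87. Of them 10 were below the wild type in both Brg1 pairs (23.5% of all genes were), and their Brg1 median was -0.46 against an Aire median of -1.05. Summed on the linear scale, the kallikreins read 27026 and 22731 in Aire+/+, 13237 and 16584 in Aire-/-, 25253 and 21197 in Brg1+/+ and 18884 and 15431 in Brg1-/-. In this family both Brg1-/- sums lay below both Brg1+/+ sums, and 1 of them lay within the Aire-/- range.

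**Figure D3:**
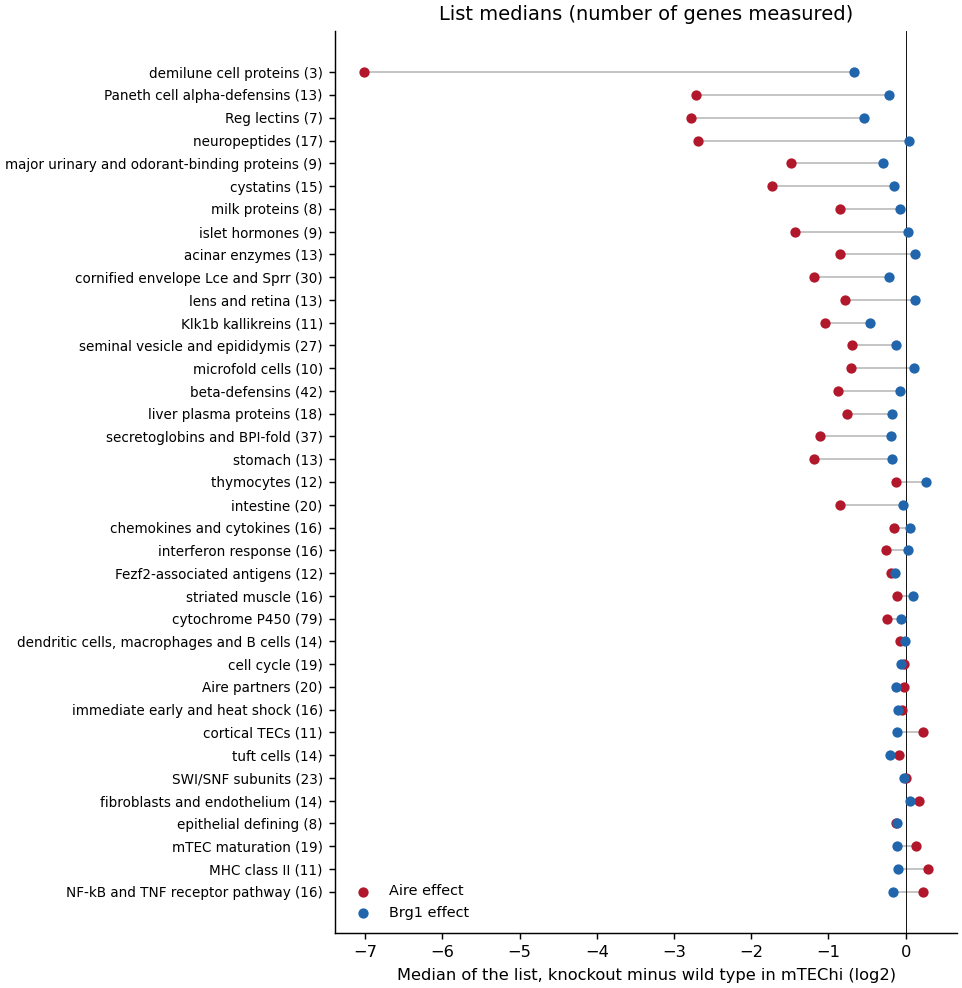
Median Aire effect (red) and Brg1 effect (blue) in mTEChi for each gene list, in log2, with the number of genes measured in parentheses; lists are ordered by median difference. The 2 points lie farthest apart in the demilune genes (medians -7.02 and -0.67), followed by the neuropeptides (-2.69 and 0.05) and alpha-defensins (-2.72 and -0.21), and close together in the muscle and P450 lists.

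The lists of the thymic epithelium itself, of other cell types and of pathways gave few calls. The SWI/SNF subunits (23 genes, median difference -0.16), Aire partners (20 genes, -0.09), mTEC maturation genes (19 genes, -0.29), tuft cell genes (14 genes, -0.15), cortical epithelial genes (11 genes, -0.12) and cell cycle genes (19 genes, -0.07) had 0 called in either direction without the block and within each line. In the NF-kB and TNF receptor pathway, which drives mTEC maturation, 0 of 16 genes were called, with a median of -0.41 and 15 of 16 below 0, against -0.05 and 55.1% below 0 over all genes. The chemokine gene Xcl1 read lower without Aire (-3.94) and not without Brg1 (0.14), a difference of 4.08 (SE 0.618) that passed only with the block (limma adjusted p = 0.0953 and 0.0019). Dendritic cell, macrophage and B cell genes had a median of 0.01 (14 genes), fibroblast and endothelial genes -0.18 (14 genes), microfold cell genes 0.85 (10 genes), interferon response genes 0.27 (16 genes) and stress genes -0.11 (16 genes), each with 0 called without the block and within each line. Of the microfold cell genes 1 was called higher with the block common to both lines. The Aire effect passed with the lower value in 3 of them with the block.

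The 14 genes with the lower value for Brg1 passed only with the block. In 13 of the 14 the Brg1 effect was below 0, with a median of -0.68, while the median Aire effect was 1.5. Of the 14, 11 lay below the wild type in both Brg1 pairs (78.6%), against 23.5% of all genes. The difference chose these genes and contains the Brg1 effect, so this share is a description.

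Pitpnc1, a phosphatidylinositol transfer protein gene, read 6.69 and 7.73 in Aire+/+, 8.57 and 9.12 in Aire-/-, 7.32 and 8.06 in Brg1+/+ and 6.43 and 7.15 in Brg1-/-. Aire-/- was higher and Brg1-/- lower than its wild type, without overlap in either line. The difference was -2.54 (SE 0.65, limma adjusted p = 0.495), or SE 0.298 and adjusted p = 0.0147 with the block. Fbxo2, an F-box gene whose protein marks glycoproteins for degradation, read 6.52 and 7.26 in Aire+/+, 7.13 and 7.83 in Aire-/-, 7.74 and 8.48 in Brg1+/+ and 6.08 and 6.76 in Brg1-/-. Its Aire groups overlapped and its Brg1 groups did not. Both Brg1+/+ arrays lay above both Aire+/+ arrays, and the Brg1-/- arrays overlapped Aire+/+. The wild types of the 2 lines thus differed in Fbxo2. The difference of -2.28 (SE 0.607, adjusted p = 0.546, and 0.0147 with the block) came from a Brg1 effect of -1.69 and an Aire effect of 0.59, so Fbxo2 was the gene of the 14 with the largest Brg1 effect. That Brg1 effect did not pass on its own (limma adjusted p = 0.184 with the block).

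Tafa1, which encodes a secreted chemokine-like protein of brain, showed the other form. It read 6.78 and 6.49 in Aire+/+, 8.96 and 8.60 in Aire-/-, 7.05 and 6.85 in Brg1+/+ and 6.97 and 6.87 in Brg1-/-. Only the Aire-/- arrays were high, and the Brg1 effect in Tafa1 was -0.03 (95% interval -0.62 to 0.56). Amdhd1 (-0.17) and the phosphatase gene Dusp15 (-0.14) likewise had Brg1 effects near 0. Hal and Amdhd1 encode enzymes of histidine breakdown and differed by -2.45 (limma adjusted p = 0.0255 with the block) and -2.18 (0.0188). With the block common to both lines the Amdhd1 difference did not pass (limma adjusted p = 0.0604). Plscr5, a phospholipid scramblase gene, differed by -2.17, the retinol acyltransferase gene Lrat by -2.12, the cadherin gene Cdh8 by -2.11 and the growth factor gene Nrg1 by -2.0. Each of these last 4 had a Brg1 effect between -0.86 and -0.61 and an Aire effect between 1.28 and 1.5. Both Brg1+/+ arrays lay above both Aire+/+ arrays in Plscr5 (6.40 and 6.24 against 5.66 and 5.56) and, by less, in Cdh8. H2-Eb2, an MHC class II beta chain gene, differed by -1.94 (limma adjusted p = 0.0339 with the block) and was the only 1 of 11 MHC class II genes called. It lies in the same gene cluster as H2-Ea, whose level set apart 3 of the 4 Brg1 arrays. Whether the 2 are linked here was not tested. The other 3 called genes, named after their values were seen, were AA387883, Gm3604 and Gm5086.

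Genes with the same change in both knockouts were sought in 2 ways. With the larger of the 2 p-values as the test of each gene, 0 genes passed after adjustment in any of the 3 fits (limma), and at an unadjusted p under 0.05 in each knockout 44 genes were lower (0.199%) and 13 higher (0.0587%). With the block within each line these were 152 (0.686%) and 53 (0.239%). In a description without a test, 10 genes were at least 2-fold lower in all 4 pairs of like number (0.0451%) and 2 at least 2-fold higher (0.00903%). At a bound of 0.5 log2, 72 genes were lower (0.325%) and 16 higher (0.0722%). The count of 12 was 49 without either Brg1 array numbered 1 and 95 without either numbered 2, and 15 without any 1 of the Aire arrays. Each of these counts asks for 3 pairs rather than 4.

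Scgb2b26, a secretoglobin gene, read 5.63 and 6.45 in Aire+/+, 2.97 and 2.94 in Aire-/-, 6.55 and 5.51 in Brg1+/+ and 3.06 and 3.14 in Brg1-/-. All 4 knockout arrays lay near 3, well below all 4 wild-type arrays, and at the level of mTEClo (3.01 to 3.51). The Aire effect was -3.08 (SE 0.406, limma adjusted p = 0.0193) and the Brg1 effect -2.93 (SE 0.406, adjusted p = 1, and 0.184 with the block), so the difference of 0.15 (SE 0.575) was small beside either. Defb39, a beta-defensin gene, read 6.42 and 4.77, 1.98 and 3.32, 6.00 and 5.33, and 2.15 and 3.0 in the same order of groups. Its effects were -2.94 without Aire and -3.09 without Brg1 (SE 0.654 each), and knockout and wild-type arrays did not overlap. Neither effect of Defb39 passed (limma adjusted p = 0.157 and 1, and 0.0868 and 0.757 with the block). Defb39 thus differed from Defb19 and Defb50, which were low only without Aire. That comparison is between probe sets and was not tested.

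Ces1h, a carboxylesterase gene, read 6.44 and 7.16 in Aire+/+, 4.96 and 5.15 in Aire-/-, 7.38 and 7.51 in Brg1+/+ and 5.50 and 6.30 in Brg1-/-. Magea5, of a family expressed in testis and tumours, read 4.00 and 5.01, 2.47 and 2.92, 6.27 and 5.50, and 3.95 and 2.01. In Magea5 the Brg1 effect (-2.90) was the larger in size and the Aire effect was -1.81, with a difference of -1.09 (SE 0.918, limma adjusted p = 1). Its wild-type arrays of the 2 lines differed too, those of the Brg1 line being the higher. Prl8a2, a prolactin-family gene of placenta, had effects of -1.18 and -1.45.

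In the remaining 3 named genes the Aire effect was the larger in size. Fgb, the fibrinogen beta chain gene of liver, read 7.74 and 7.31 in Aire+/+, 4.47 and 4.18 in Aire-/-, 8.02 and 7.15 in Brg1+/+ and 6.31 and 5.96 in Brg1-/-. Both knockouts lay below their wild types, with Aire-/- the lowest, and the difference of 1.75 (SE 0.498, limma adjusted p = 0.652) passed neither without a block nor with the block within each line (adjusted p = 0.0585), but did with the block common to both lines (adjusted p = 0.0373). The mast cell protease gene Mcpt4 (Aire -3.60, Brg1 -1.24) and the seminal vesicle gene Svs3a (-3.25 and -1.09) did pass in the difference with the block (limma adjusted p = 0.0166 and 0.0366), with differences of 2.37 and 2.16. With the block common to both lines Mcpt4 passed (adjusted p = 0.0068) and Svs3a did not (adjusted p = 0.289). The other 4 genes, outside the rule for names, were 2900055J20Rik and 5530400C23Rik, which were lower, and 1700003P14Rik and Gm15056, which were higher. Gm15056 was the brightest of the 12 in the wild types, at 9.77 and 8.58 in Aire+/+, 11.04 and 10.68 in Aire-/-, 8.84 and 7.92 in Brg1+/+ and 10.20 and 10.38 in Brg1-/-. Many levels in this set lay below the array medians of 5.07 to 5.28, and with the genes restricted to a mean above the median of all genes 3 of the 12 were left.

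Opposite effects of at least 2-fold in all 4 pairs were found in 2 genes, 0.00903% of those tested, both lower without Aire and higher without Brg1. Defb40, a beta-defensin gene, read 5.83 and 4.64 in Aire+/+, 3.07 and 2.41 in Aire-/-, 2.70 and 2.87 in Brg1+/+ and 4.2 and 4.18 in Brg1-/-. The Brg1+/+ arrays were as low as Aire-/-, so the wild types of the 2 lines differed in this gene, and the difference of 3.90 passed only with the block (limma adjusted p = 0.0898 and 0.00328). Mir449c, a microRNA gene and so outside the rule for names, read 6.23 and 6.42, 4.00 and 2.33, 6.11 and 5.68, and 7.79 and 6.79 in the same order, with a difference of 4.55 (adjusted p = 0.0181 with the block). At 0.5 log2 there were 34 genes of this kind (0.153%) and 17 of the reverse (0.0767%). A Brg1 effect of at least 2-fold in both numbers with an Aire effect under 0.5 in both was found in 1 gene (0.00451%), Sycp1, which encodes a synaptonemal complex protein of meiosis. Sycp1 read 3.81 and 3.08 in Brg1+/+ and 5.01 and 4.09 in Brg1-/-, against 3.89 and 3.99 in Aire+/+ and 3.47 and 3.78 in Aire-/-, all at or below the array medians. Its Brg1 effect of 1.10 did not pass (limma adjusted p = 1, and 0.757 with the block).

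Computed within each number, the difference was at least 1 log2 in both numbers in 515 genes with the higher value for Brg1 (2.32%) and in 128 with the lower (0.578%). At 2 log2 the counts were 189 (0.853%) and 7 (0.0316%). Across the 22154 genes, which are not independent and share the arrays' normalization, the differences of number 1 and number 2 correlated with r = 0.381 and rho = 0.162. For Defa21 they were 7.10 and 7.44, for Dcpp1 5.63 and 7.08, for Fbxo2 -2.27 and -2.29 and for Scgb2b26 -0.83 and 1.14. The 201 genes called with the block lay on the same side of 0 in both numbers, which the block favours, since it takes its spread from how far the numbers differ.

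**Figure D4:**
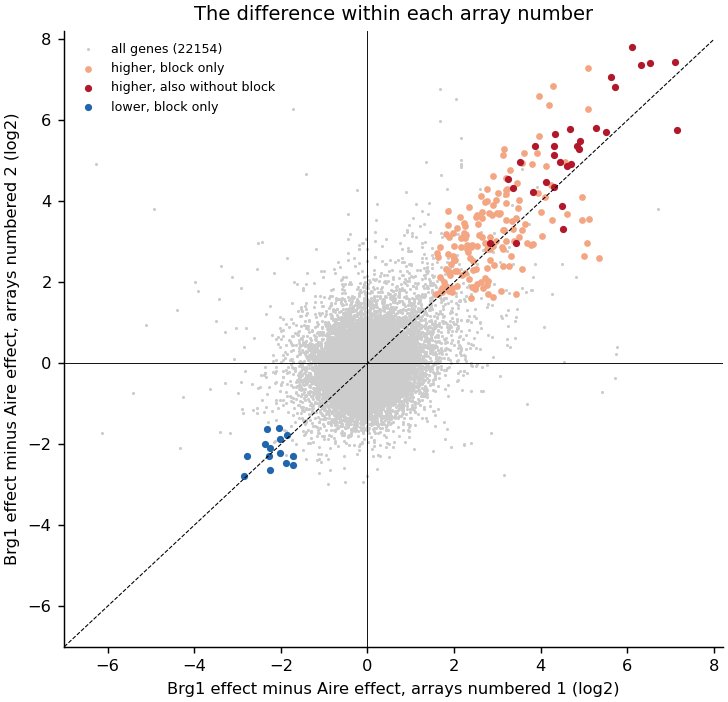
The Brg1 effect minus the Aire effect among arrays numbered 1 (x axis) and among arrays numbered 2 (y axis), log2, for 22154 genes; the dashed line marks equal values. Called genes lie near the line at the upper right (Defa21 at 7.10 and 7.44) and lower left (Fbxo2 at -2.27 and -2.29), and the bulk of genes surrounds 0.

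The mTEClo arrays were not part of the mTEChi difference, though they entered the mean over 12 arrays that picked the probe set of a gene. They gave the same difference with 1 array a group. There 0 of 22154 genes passed without a block or with a block within each line (limma, 326 genes or 1.47% and 1169 genes or 5.28% at an unadjusted p under 0.05). Of the 30 genes called in mTEChi, 23 had an mTEClo difference above 0 (76.7%, against 44.6% of all genes), with a median of 0.54. Within mTEClo the Aire effect was below 0 in 28 of the 30 genes (93.3%, against 44.0% of all genes), with a median of -1.3. The Brg1 effect was below 0 there in 25 of the 30 (83.3%, against 51.0% of all genes). These Brg1 effects share 1 Brg1+/+ mTEClo array. It read above the Aire+/+ array in Dcpp2 (9.92 against 9.15) and Lce3a (10.04 against 9.24), where Brg1-/- (9.25 and 9.39) did so too. It read below the Aire+/+ array in Cst10 (3.94 against 4.83) and Bpifa2 (4.43 against 5.02). The part of this array in the count of 25 was not tested. In mTEChi the Brg1 effect was below 0 in 20 of the 30 (49.7% of all genes). Defa21 read 7.64 in Aire+/+, 4.39 in Aire-/-, 8.28 in Brg1+/+ and 7.0 in Brg1-/- mTEClo, a difference of 1.97, and Cst9 read 7.09, 4.54, 8.10 and 6.06, a difference of 0.51. In Cst9 the knockout effects were thus of like size in mTEClo (-2.55 and -2.04) and of unlike size in mTEChi (-5.69 and -0.14). Whether these differ between the cell types was not tested. Of the 187 genes called with the block, 104 had an mTEClo difference above 0 (55.6%, against 44.6% of all genes), with a median of 0.13. Of the 14 genes called lower 12 had an mTEClo difference below 0 (85.7%, against 54.5% of all genes). With a block common to both lines 3 genes passed in mTEClo, 2 higher (Reg3b and AF357355, 0.00903%) and 1 lower (4930480M12Rik, 0.00451%). Reg3b, a gut lectin gene, read 11.15 in Aire+/+ mTEClo against 7.11, 7.49 and 8.11 in Aire-/-, Brg1+/+ and Brg1-/-. Its single high array was thus a wild type. The mTEClo groups give no spread of their own, so these calls rest on the spread of the mTEChi arrays and on 1 array a group.

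The promoter windows of the genes called higher held fewer CG than those of all genes. RefSeq windows of 300 bases, from 250 before to 50 after the first listed start, were matched by symbol for 15373 of 18969 protein-coding genes tested, 139 of 172 called higher with the block and 10 of 12 called lower. The median number of CG was 3 in the genes called higher, 11.5 in those called lower and 14 over all genes, and 10 or fewer were found in 92.8%, 40% and 41.8% of the windows. TATAA, read on the gene's strand within 50 bases before the start, was in 45 of the 139 windows (32.4%), 2 of the 10 (20%) and 5.76% of all windows. For the 30 genes called without the block 23 of 29 had a window (79.3%), a share below the minimum set for this comparison, so they were left out of it. In the windows printed above, TATAA began 31 bases before the start in Defa21 and Defa22 and 26 to 31 bases before it in the Dcpp genes. The 300-base windows held 23 CG for Pitpnc1 and 21 for Fbxo2 against 1 for Defa21. Of the 12 genes that moved the same way in both knockouts, 9 of 10 protein-coding ones had a window, with a median of 1 CG and TATAA in 4 of the 9. These are matches of letters and descriptions of sets chosen from the levels, with no test.

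**Figure D5:**
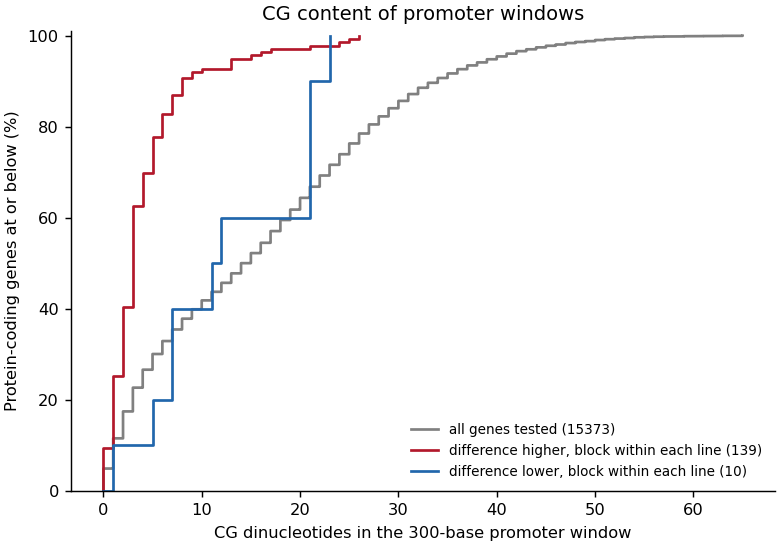
Share of protein-coding genes (percent, y axis) with at most a given number of CG dinucleotides in the 300-base promoter window (x axis). The curve of the 139 genes called higher in the difference rises first (median 3), while that of the 10 called lower (median 11.5) stays nearer that of all 15373 genes (median 14).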

How the data were processed

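RNA of sorted mTECs was measured with a biotin label on 12 Affymetrix arrays. The deposited table holds linear intensity values for 33732 probe sets, each 2 raised to a number with 2 decimals. Per the submitters' processing notes the tools were Transcriptome Analysis Console, Affymetrix Expression Console and RMA; versions and order are not given in the sources used here. No detection call was used, so levels near background are not known, and folds into that range are compressed.

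Values were taken as log2, with no pseudocount. Of the probe sets 23491 had 1 symbol, 1811 several and 8430 none; for a gene with several the brightest was kept, which set 1337 aside and left 22154 genes. Differences were fitted in R 4.3.3 with limma 3.58.1 (lmFit, eBayes; 8 group means over 12 arrays, 4 residual degrees of freedom, two-sided, Benjamini-Hochberg adjusted p under 0.05 over all genes). The lone mTEClo arrays were assumed to vary like mTEChi. Alternatives were a block for array number (within each line, 2 residual degrees of freedom, or common to both, 3), centring, quantile normalization, 2 filters on dim genes, the mean of probe sets, log2(intensity + 16), an intensity trend, mTEChi arrays alone and leaving out each array.

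The number in the titles was taken to pair the arrays: the deviations of array 1 from array 2 correlated across genes between every pair of groups (r = 0.552 to 0.657). What the number stands for is not given. On simulated data, genes were lowered in the Aire-/- mTEChi arrays, which tested only the recovery of a difference with the higher value for Brg1. Differences with the lower value, agreement of the knockouts and mTEClo differences were not simulated. Members and lists were chosen with earlier results of these data known. The rule for names takes Aire, Smarca4 and Ins2, up to 12 genes with the largest called difference each way (with the block where none is called without it), and the genes past 2-fold in all 4 pairs, leaving out predicted genes, clone names, small RNAs and olfactory receptors. Further genes named from lists, and H2-Ea and Tcea1, were chosen after their values were seen.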

Additional observations from a re-analysis of the deposited data

Results flagged for a closer look

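The effects of the knockouts in mTEChi differed by the test of the difference itself (limma, Brg1 effect minus Aire effect, adjusted p under 0.05) in 30 genes, which is why these are given here. Among the named ones the difference was 7.27 on the log2 scale in Defa21, 6.84 in Defa22, 6.46 in Dcpp2, 6.36 in Dcpp1 and 6.27 in Lce3a. It was 5.54 in Cst9, 5.23 in Ly6g, 5.20 in Ppy, 5.10 in Defb50, 5.09 in Defb19, 5.0 in Defa24 and 4.84 in Nts. Each had the higher value for Brg1. Groups of 2 arrays are too small to look for an array far from its group.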

How the results depend on the processing

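The 30 genes of the difference became 201 with the replicate block within each line and 228 with a replicate block common to both lines. They became 48 with each array centred on its median and 48 with only genes whose mean lay above the median of all genes. All 30 were among the calls in these 4 fits. Quantile normalization called 34 genes, with 29 of the 30 among them. With log2(intensity + 16) 28 were called, and with an intensity trend 26, each with 26 of the 30 among them. Leaving out 1 array gave 4 to 28 calls, and with the common replicate block 117 and 91 (without Aire+/+ array 1 or 2), 114 and 129 (Aire-/-), 306 and 181 (Brg1+/+) and 124 and 123 (Brg1-/-). The Aire effect had 176 calls, 531 and 569 with the 2 blocks, 53 to 184 without 1 array and 219 to 722 without 1 array with the common block (282 without Aire+/+ array 1, 722 without either Brg1+/+ array, 506 without either Brg1-/- array). The Brg1 effect had 0 in every fit except 1 (H2-Ea) without Brg1+/+ mTEChi replicate 2, with or without the common block (unadjusted p under 0.05: 301 genes, 1289 with the block within each line). The mTEClo difference had 0, and 3 with the common block. The 12 genes at least 2-fold the same way were 3 with the filter on the mean, 5 with log2(intensity + 16) and 15 to 95 without 1 array. Ins2 turned sign without Aire-/- mTEChi replicate 1 (-0.08) and without Brg1-/- mTEChi replicate 2 (-0.04), in a range of -0.08 to 0.71 without 1 array. Of the 35 values followed for named genes, 1 for each gene, the others kept their direction in the fits that gave them. The 11 named genes of lower difference passed with the replicate block within each line; Amdhd1 did not with the common one (limma adjusted p = 0.0604). The cause of these changes was not tested. Leaving out an array also unbalances the array numbers. With 2 arrays a group, signal over background was not known for any probe set.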
